A study of Mus musculus with 8 samples.

Results

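The genes described here are 37 genes of DNA replication and S phase, taken by symbol from a fixed list and all found among the 55414 Ensembl mouse genes counted in pancreatic islets. Islets hold the hormone cells of the pancreas, in mice chiefly beta cells, which secrete insulin. RNA was sequenced in 8 libraries from C57BL/6 mice aged 5 weeks. The 4 libraries labelled TG had the genotype Ins2 cre(+/-) ATF4 TG(+/-), and the 4 labelled WT had Ins2 cre(-/-) ATF4 TG(+/-), so mice of both groups carried the ATF4 transgene and differed in Cre recombinase, whose label names Ins2, an insulin gene of beta cells. ATF4 is a transcription factor of the integrated stress response. The samples hold no group with Cre and no transgene, so the transgene and Cre itself cannot be told apart. Separate mice are not stated for the replicates, so p-values measure the spread between these samples, which may be technical.

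A cell copies its DNA once per division. In G1 the origin recognition complex, with Cdc6 and Cdt1, loads the ring-shaped Mcm2, Mcm3, Mcm4, Mcm5, Mcm6 and Mcm7 helicase onto origins, a step called licensing. In S phase Cdc45 and the GINS complex switch that helicase on, DNA polymerases copy the strands, Pcna holds them on the template as a sliding clamp, and ribonucleotide reductase supplies the building blocks. Many of these genes are transcribed under E2F factors late in G1, whereas genes of mitosis are mostly transcribed later, in G2, through a promoter element called the cell cycle homology region (CHR). Beta cells of young mice still divide and become mostly quiescent with age.

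Before the results, several features of the libraries bear on them. They held 16521087 to 22499999 counts assigned to genes, and no member fell below 7 counts in any library. Atf4 itself, which may not receive the reads of the transgene, was lower in the libraries labelled TG (234 to 278 CPM, counts scaled to a common library size) than in those labelled WT (326 to 378 CPM), so it cannot check the labels and every direction is given as labelled. All 10 beta-cell markers were detected and all 10 were lower in TG, with sums of 50093 to 64198 CPM against 103120 to 123756 CPM. All 10 endothelial markers were higher, at 1200.4 to 1260.5 CPM against 502.9 to 882 CPM, as were 6 of 10 mural and fibroblast markers, at 3348 to 6485 CPM against 844 to 2798 CPM. Of the macrophage markers 7 of 9 were higher and of the duct markers 4 of 6, while 0 of 5 alpha-cell and 0 of 3 delta-cell markers passed the edgeR test in either direction. WT replicate 3 had the most endothelial, mural and fibroblast RNA of its group. TG replicate 1 had the most mural and fibroblast RNA of its group, and its 10 acinar markers summed to 40773 CPM, where the other 7 libraries lay between 1250.1 and 12549 CPM. In whole islets, fewer cells of a type and less RNA per cell cannot be told apart, and the part of this cell makeup in the results was not tested.

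Promoter letters are shown first because the members and the mitosis genes described later differ in which words they hold. RefSeq promoter windows (build GRCm38.p6, 300 bases, of which 250 lie before the transcript start) were at hand for 30 of the 37 members. They were searched on both strands for the E2F-type letters TTTCCCGC, TTTGGCGC, TTTCGCGC and TTTGCCGC, which can overlap each other across strands. At least 1 of the 4 was found in 13 of 30 members (43.3%), against 704 of 27025 genes with a window (2.61%) and 1 of 18 mitosis genes (5.56%). Of 57 other replication genes, described later, 45 had a window and 15 of those (33.3%) held such letters, so they are not particular to the members. The CHR letters TTTGAA were found in 4 of 30 members (13.3%), in 13 of 18 mitosis genes (72.2%), in 24.4% of the other replication genes and in 20.2% of all genes. CCAAT, the letters of the NF-Y box, were found in 60.0% of the members, 88.9% of the mitosis genes, 55.6% of the other replication genes and 41.1% of all genes. A match is a description of the letters and not evidence of binding.

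The stretches below give the 170 bases that end just before the transcript start, written 5′ to 3′ along the gene, with E2F-type letters in capitals. Cdc6 is shown because it fell, and Mcm5, Mcm6, Mcm7, Gins3 and Pola1 because they carry the same kind of letters and were not called. Mcm5 and Mcm6 hold overlapping matches on both strands.
Cdc6 (chr11:98907981-98908150, plus strand): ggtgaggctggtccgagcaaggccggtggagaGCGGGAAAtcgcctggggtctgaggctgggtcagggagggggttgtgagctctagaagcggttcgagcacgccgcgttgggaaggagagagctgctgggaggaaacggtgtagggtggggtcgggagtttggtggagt
Mcm5 (chr8:75109339-75109508, plus strand): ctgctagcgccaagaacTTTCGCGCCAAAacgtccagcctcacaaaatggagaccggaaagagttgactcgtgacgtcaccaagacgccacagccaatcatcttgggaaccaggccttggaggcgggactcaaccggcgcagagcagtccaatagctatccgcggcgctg
Mcm6 (chr1:128359706-128359875, minus strand): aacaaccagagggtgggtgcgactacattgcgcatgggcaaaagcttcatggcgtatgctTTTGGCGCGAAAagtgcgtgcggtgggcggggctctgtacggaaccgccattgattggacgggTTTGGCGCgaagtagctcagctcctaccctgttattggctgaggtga
Mcm7 (chr5:138171884-138172053, minus strand): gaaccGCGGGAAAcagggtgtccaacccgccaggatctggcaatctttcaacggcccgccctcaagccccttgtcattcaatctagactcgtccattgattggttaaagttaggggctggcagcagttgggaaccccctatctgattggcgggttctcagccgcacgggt
Gins3 (chr8:95633389-95633558, plus strand): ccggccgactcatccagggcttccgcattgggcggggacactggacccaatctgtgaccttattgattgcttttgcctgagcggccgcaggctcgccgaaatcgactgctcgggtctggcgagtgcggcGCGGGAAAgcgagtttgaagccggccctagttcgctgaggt
Pola1 (chrX:93632156-93632325, minus strand): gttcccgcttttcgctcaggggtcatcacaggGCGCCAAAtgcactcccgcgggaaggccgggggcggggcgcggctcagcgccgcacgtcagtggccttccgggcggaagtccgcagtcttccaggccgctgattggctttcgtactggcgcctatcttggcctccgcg

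For contrast, Rrm1 also fell and holds none of the 4 E2F-type words, while the proliferation marker Mki67 holds the CHR letters in 2 places, in capitals here.
Rrm1 (chr7:102441525-102441694, plus strand): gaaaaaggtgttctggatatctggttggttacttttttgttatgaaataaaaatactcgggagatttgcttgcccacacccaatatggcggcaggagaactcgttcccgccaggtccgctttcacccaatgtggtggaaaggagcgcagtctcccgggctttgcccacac
Mki67 (chr7:135716380-135716549, minus strand): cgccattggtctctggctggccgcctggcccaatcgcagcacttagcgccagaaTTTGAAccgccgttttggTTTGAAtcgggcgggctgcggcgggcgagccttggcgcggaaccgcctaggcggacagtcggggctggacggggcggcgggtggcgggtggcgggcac

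**Figure D1:**
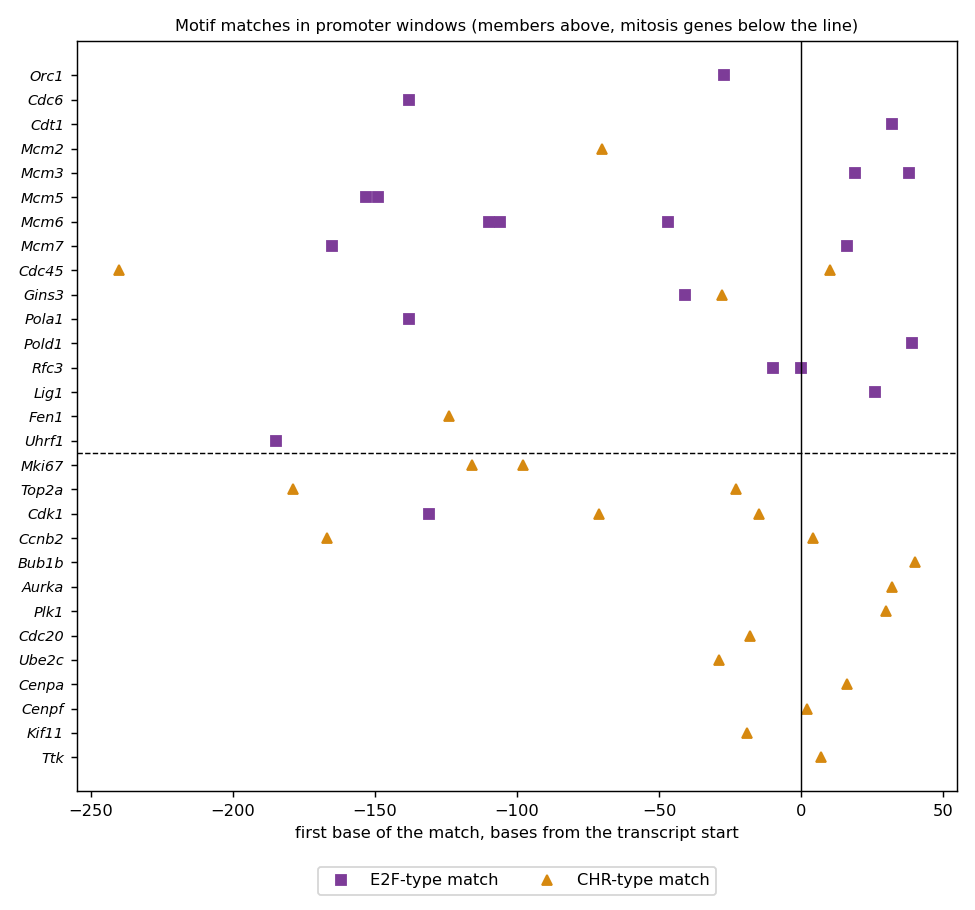
Position of motif matches in promoter windows, in bases from the transcript start, with replication and S-phase genes above the dashed line and mitosis genes below it. Squares are E2F-type matches and triangles are CHR-type matches, and genes without a match or a window are left out. E2F-type matches lie in 13 members and 1 mitosis gene, and CHR-type matches in 4 members and 13 mitosis genes.

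Most transcripts of the replication machinery did not pass the test of a difference between the groups. Of the 37 members, 3 were lower (Cdc6, Rfc5 and Rrm1) and 1 was higher (Gins4) in the libraries labelled TG at an adjusted p under 0.05 (edgeR quasi-likelihood test, two-sided, Benjamini-Hochberg adjustment over 20509 genes). Over all tested genes 20.1% were called, 8.06% lower and 12.1% higher, and the members' 8.11% lower is near that background. At an unadjusted p under 0.05, 6 members were lower and 1 was higher, where all genes gave 14.2% and 17.6%. The median log2 fold change of the members, TG minus WT, was −0.16, against 0.00 over all genes, and 27 of 37 values were below 0. The groups did not overlap, with TG lower, for 4 members (Cdc6, Mcm10, Rfc5 and Rrm1), where 9.94% of all genes had that pattern (22.6% in either direction), and for 0 members with TG higher. The 37 members summed to 669, 538, 584 and 640.4 CPM in TG replicates 1 to 4, and to 658, 640.1, 706 and 603 CPM in the WT replicates. The means were 608 ± 58.6 CPM and 652 ± 42.8 CPM (SD, n = 4 each), and the groups overlapped.

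The intervals of most members leave little room for a large change. Among the 33 members not called, the 95% interval of the fold change excluded a 2-fold fall in 27 and a 2-fold rise in 32. Of the 21 members with a WT mean of at least 10 CPM, 20 had an interval that excluded a 2-fold fall and 17 one that excluded a 1.5-fold fall. The 16 members under 10 CPM were less precise. Their median log2 fold change was −0.41, with 13 values below 0, against −0.10 for the more abundant members, with 14 values below 0.

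**Figure D2:**
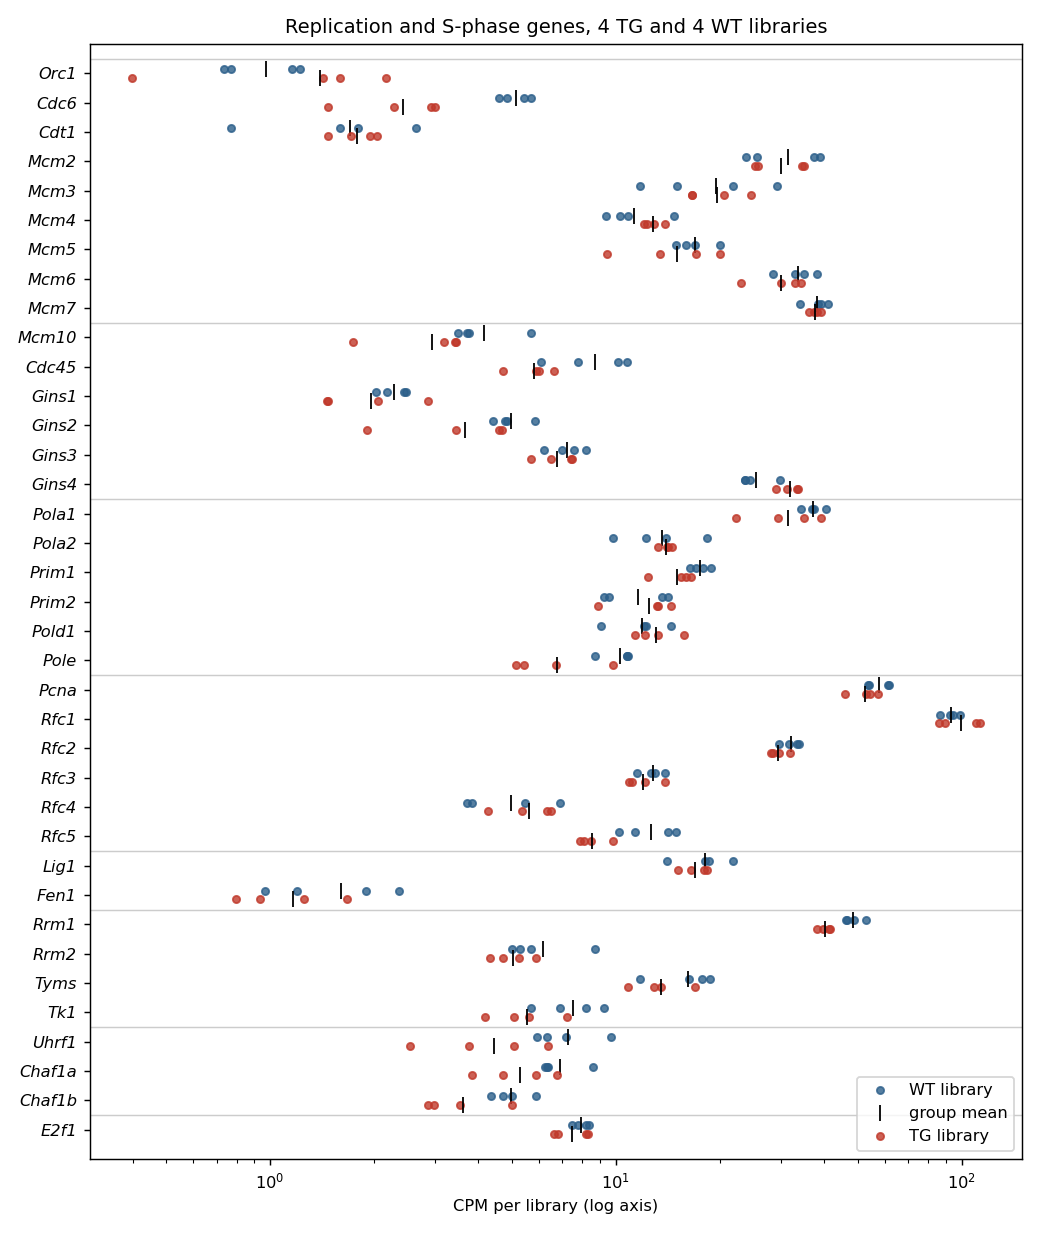
CPM of each of the 37 members in every library on a log axis, grouped by role from licensing at the top to the regulator E2f1 at the bottom. Points are libraries (4 per group) and black ticks are group means. TG and WT points are apart for Cdc6, Mcm10, Rfc5 and Rrm1 and overlap for the other 33 members.

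Among the licensing genes Cdc6 fell, and the Mcm helicase subunits did not pass the test. Cdc6, the ATPase that helps load the helicase, measured 2.92, 1.47, 3.002 and 2.28 CPM in TG replicates 1 to 4 and 4.59, 5.67, 5.42 and 4.83 CPM in the WT replicates. Every TG-labelled library lay below every WT-labelled one. Cdc6 (ENSMUSG00000017499) had a log2 fold change of −1.09 (SE 0.26, adjusted p = 0.00826, edgeR), a 2.12-fold fall, and it was called in 16 of 17 alternative settings. It was not called with a covariate made of endothelial, mural and fibroblast markers (−1.36, adjusted p = 0.346).

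The 6 subunits of the helicase ring had log2 fold changes between −0.19 and 0.17. Mcm7, the most abundant of them per kilobase of exon in WT (8.64 CPM per kb), measured 38.2, 36.2, 37.4 and 39.3 CPM in TG and 39.2, 38.5, 41.2 and 34.2 CPM in WT. Its log2 fold change was −0.02 with a 95% interval from −0.22 to 0.18, a span that excludes changes of the size seen for Cdc6. Mcm6 measured 30.1 ± 4.99 CPM in TG and 33.6 ± 4.03 CPM in WT (SD, n = 4 each; interval −0.44 to 0.12). Mcm2 stood at 30.1 ± 5.31 CPM and 31.4 ± 7.88 CPM (interval −0.44 to 0.31), and Mcm5 at 14.98 ± 4.58 CPM and 17.0 ± 2.21 CPM (−0.60 to 0.23). Mcm4 had a log2 fold change of 0.17 (−0.17 to 0.52).

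Mcm3 varied widely between libraries of 1 group. It measured 21.8, 15.01, 29.3 and 11.7 CPM in WT replicates 1 to 4 and 24.6, 16.6, 16.6 and 20.5 CPM in TG. The highest value of each group was in WT replicate 3 and TG replicate 1, the 2 libraries with the most mural and fibroblast RNA of their groups. These libraries also had the lowest beta-cell marker sums of their groups. The lowest WT value was in replicate 4, which did not have the least mural and fibroblast RNA. Mcm3 had a log2 fold change of 0.00 (interval −0.58 to 0.59), and of −1.26 (adjusted p = 0.0574, edgeR) with the vascular and stromal covariate. The other licensing factors were scarce. Orc1, a subunit of the origin recognition complex, had 1.39 ± 0.734 CPM in TG and 0.972 ± 0.253 CPM in WT. Cdt1, the partner of Cdc6 in loading, had 1.79 ± 0.253 CPM and 1.70 ± 0.766 CPM (SD, n = 4 each). Their intervals, −0.49 to 1.54 and −0.72 to 0.86, are wide at this depth.

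Among the genes that switch the helicase on, 1 of 6, Gins4, was called and rose. Gins4, a subunit of the GINS complex, measured 31.2, 33.7, 33.5 and 28.9 CPM in TG and 23.6, 29.8, 23.6 and 24.4 CPM in WT. One WT library, replicate 2, lay above the lowest TG library, so the groups overlapped. Gins4 (ENSMUSG00000031546) rose by 0.33 on the log2 scale (SE 0.11, adjusted p = 0.0499, edgeR), at the edge of the threshold. It missed the threshold in 11 of 17 alternative settings, among them 7 of the 8 that leave out 1 library (each except WT replicate 2). In WT its RNA also stood at 18.8 CPM per kb of annotated exon, above Gins3 (2.67), Gins1 (1.502) and Gins2 (1.21). The complex holds 1 copy of each protein, which these RNA levels do not measure.

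Cdc45, which joins the Mcm ring and GINS in the active helicase, measured 5.88, 4.71, 6.62 and 5.98 CPM in TG and 6.09, 7.78, 10.8 and 10.1 CPM in WT. TG replicate 3 lay above WT replicate 1, and the log2 fold change of −0.58 (SE 0.21) missed the threshold (adjusted p = 0.0644, edgeR). It passed with DESeq2, with upper-quartile scaling, with no filter on low counts and without WT replicate 1 (−0.73, adjusted p = 0.026). Mcm10, a factor of origin firing despite its name, measured 3.46, 1.73, 3.18 and 3.42 CPM in TG and 3.77, 5.67, 3.70 and 3.48 CPM in WT. These groups did not overlap, but only by the narrow step from 3.46 to 3.48 CPM, and Mcm10 did not pass the test (−0.50, adjusted p = 0.238, edgeR). Gins1, Gins2 and Gins3 had log2 fold changes of −0.22, −0.45 and −0.10 and were not called. Exons of Gins2 overlap those of Gse1 on the other strand over 67.3% of their length, so its values are uncertain, because no source used here states whether reads were counted by strand.

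None of the 6 polymerase and primase genes was called (edgeR; 1 of them, Pole, had an unadjusted p under 0.05). Pole, the catalytic subunit of the leading-strand polymerase epsilon, measured 9.83, 5.42, 6.71 and 5.13 CPM in TG and 10.8, 10.8, 10.7 and 8.68 CPM in WT. TG replicate 1 was the only TG library that reached the WT range. Pole missed the threshold at −0.60 on the log2 scale (SE 0.21, adjusted p = 0.055, edgeR) and passed it in 6 of 17 alternative settings. Among these were DESeq2 (adjusted p = 0.0303), limma-voom, upper-quartile scaling and no filter, each with all 8 libraries. Without TG replicate 1 it was at −0.83 (adjusted p = 0.00869, edgeR), and without TG replicate 2 at −0.51 (adjusted p = 0.142). Pold1, the catalytic subunit of the lagging-strand polymerase delta, had 13.1 ± 1.90 CPM in TG and 11.9 ± 2.22 CPM in WT (interval −0.22 to 0.49). Polymerase alpha, which starts each strand together with primase, showed −0.24 for Pola1 and 0.04 for Pola2, and the primase genes Prim1 and Prim2 showed −0.22 and 0.09. Their intervals lay between −0.55 and 0.50.

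The sliding clamp did not pass the test, and 1 subunit of its loader fell. Pcna, the clamp, was the member with the highest level per kilobase in WT (24.0 CPM per kb), and measured 57.4, 46.1, 52.7 and 54.3 CPM in TG and 61.0, 53.6, 53.9 and 61.5 CPM in WT. The groups overlapped, and the log2 fold change of Pcna was −0.13 with an interval from −0.33 to 0.08. Rfc5, a small subunit of the clamp loader, measured 8.48, 9.78, 7.86 and 8.09 CPM in TG and 11.4, 14.9, 14.1 and 10.2 CPM in WT. All TG values lay below all WT values. Rfc5 (ENSMUSG00000029363) fell by 0.56 on the log2 scale (SE 0.17, adjusted p = 0.0252, edgeR), or 1.48-fold. Its call was lost when TG replicate 1 or 3, or WT replicate 2 or 3, was left out (adjusted p between 0.0551 and 0.0972, edgeR; log2 fold change −0.56 to −0.48). With the vascular and stromal covariate Rfc5 was at −0.70 and not called (adjusted p = 0.493, edgeR). Of its exon bases 10.7% overlap Wsb2 on the other strand. Larger shares of the exon bases of Rfc2 (15.1%), Rfc4 (12.65%), Mcm7 (12.6%, in part on the same strand) and Orc1 (10.8%) also overlap other genes.

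The other loader subunits did not pass. Rfc1, the large subunit, had the highest CPM of all members, 99.7 ± 13.8 in TG and 92.9 ± 5.18 in WT (SD, n = 4 each; interval −0.11 to 0.32). Rfc2 and Rfc3 had log2 fold changes of −0.12 and −0.09, and Rfc4 of 0.18. On the lagging strand, Lig1, the ligase that seals Okazaki fragments, stood at 17.0 ± 1.48 CPM and 18.1 ± 3.18 CPM (interval −0.40 to 0.21). Fen1, the nuclease that trims their flaps, had 1.16 ± 0.39 CPM in TG and 1.60 ± 0.64 CPM in WT. Of its exon bases 84.2% overlap other genes on the opposite strand, chiefly Gm10143 and Tmem258. If strand was ignored in counting, reads that fit 2 genes were counted for neither. The strand setting is not stated, so the low level of Fen1 cannot be read as scarce RNA.

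Nucleotide supply genes had 4 of 4 values below 0, and 1 of them, Rrm1, was called. Rrm1, the large subunit of ribonucleotide reductase, measured 41.7, 39.7, 41.2 and 38.1 CPM in TG and 46.4, 46.6, 52.7 and 48.7 CPM in WT. The groups were apart, with a small spread inside each. Rrm1 (ENSMUSG00000030978) fell by 0.27 on the log2 scale (SE 0.09, adjusted p = 0.0431, edgeR), or 1.21-fold. The call was lost without any 1 of the 8 libraries (adjusted p between 0.0504 and 0.103, edgeR), where the log2 fold change of Rrm1 was −0.32 to −0.24. It was also lost with no filter on low counts (−0.29) and with the vascular and stromal covariate (−0.47). Rrm2, the small subunit that limits the enzyme in S phase, had 5.04 ± 0.673 CPM and 6.16 ± 1.70 CPM, with 8.68 CPM in WT replicate 4 (interval −0.76 to 0.19). Tyms, which makes thymidylate, had a log2 fold change of −0.26 (adjusted p = 0.338, edgeR), and Tk1, the salvage kinase of thymidine, of −0.45 (adjusted p = 0.177).

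The 3 chromatin genes had values below 0 and none was called (edgeR; Uhrf1 alone had an unadjusted p under 0.05). Uhrf1, which guides DNA methylation onto new strands, measured 6.37, 2.53, 3.75 and 5.07 CPM in TG and 6.33, 7.18, 9.67 and 5.93 CPM in WT. TG replicate 1 lay within the WT range and the other 3 TG libraries below it. Uhrf1 missed the threshold at −0.72 on the log2 scale (SE 0.27, adjusted p = 0.0716, edgeR) and passed it in 4 of 17 alternative settings. These were DESeq2 (adjusted p = 0.0441), limma-voom and no filter, each with all 8 libraries, and leaving out TG replicate 1 (−0.94, adjusted p = 0.0276, edgeR). Without TG replicate 2 it was at −0.53 (adjusted p = 0.18, edgeR). Chaf1a and Chaf1b, subunits of the factor that deposits histones behind the fork, had log2 fold changes of −0.38 and −0.47 with intervals from −0.84 to 0.09 and from −0.98 to 0.04. Exons of Chaf1a overlap Ubxn6 on the other strand over 52.5% of their length. E2f1, a transcription factor that activates many S-phase genes, did not pass, with 7.48 ± 0.883 CPM in TG and 7.95 ± 0.416 CPM in WT (SD, n = 4 each; interval −0.44 to 0.27).

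Single libraries stood high or low for many members at once. Within WT, replicate 3 held the highest value for 18 of the 37 members and replicate 4 the lowest for 18. Within TG, replicate 1 held the highest value for 19 members and replicate 2 the lowest for 22. Leaving out TG replicate 3, WT replicate 2 or WT replicate 3 left 1 member called lower, Cdc6, and leaving out any library but WT replicate 2 left 0 called higher (edgeR). The members whose groups did not overlap with TG lower went from 4 to 9 without TG replicate 1 and to 7 without TG replicate 4. Fewer libraries also make an overlap rarer, and the 9.94% of all genes given above holds for all 8 libraries. No share over all genes is given for the smaller sets, so these counts have no background to be read against. In both groups the library with the highest value for most members also had the most mural and fibroblast RNA. These libraries, TG replicate 1 and WT replicate 3, also had the lowest beta-cell marker sums of their groups (50093 and 103120 CPM). At the low end the libraries differed. TG replicate 2 and WT replicate 4 held most lowest values, but TG replicate 4 and WT replicate 2 had the least mural and fibroblast RNA. The part of this cell makeup in the result was not tested.

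With the mean log2 CPM of the 20 endothelial, mural and fibroblast markers as a covariate, edgeR called 0 members, where 13 of 37 (35.1%) had an unadjusted p under 0.05, 12 of them lower. Over all genes 10.7% had such a p, 0.926% were called lower and 0.57% higher. The median log2 fold change of the members was then −0.47, against −0.02 over all genes. The covariate differed between the groups without overlap, and it raised the median standard error of the members from 0.18 to 0.37.

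Other replication genes were also mostly not called. Of 57 genes of licensing, firing, fork, nucleotide and E2F function outside the 37, 8 were lower (14.04%, against 8.06% of all genes) and 1 was higher (against 12.1% of all genes), with a median log2 fold change of −0.16. None of 14 further licensing and firing genes was called (edgeR; 6 had an unadjusted p under 0.05, 5 of them lower). Of 20 fork and polymerase genes, 2 fell: Rnaseh2b, a subunit of the RNase that removes ribonucleotides from DNA, from 16.0 ± 2.15 to 9.23 ± 1.03 CPM (log2 fold change −0.79, adjusted p = 0.00194, edgeR), and Clspn, an adaptor of the replication checkpoint (−0.72, adjusted p = 0.0457). Of 9 nucleotide and chromatin genes, 3 fell: Dut, which removes dUTP (−0.30), and the histone chaperones Nasp (−0.27) and Asf1b (−0.94). Rnaseh2b was called in 16 of 17 alternative settings and Clspn, Nasp and Asf1b in 9 each. The 8 lower calls became 3 when TG replicate 2 or WT replicate 2 was left out, and 4 when TG replicate 3 or WT replicate 1 was.

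Of 14 E2F, pocket protein and S-phase cyclin genes, 3 fell and 1 rose. Ccna2, the cyclin of S phase and G2, measured 8.80, 7.82, 10.4 and 9.97 CPM in TG and 17.1, 24.2, 24.5 and 20.8 CPM in WT. The groups were far apart. Ccna2 (ENSMUSG00000027715) fell by 1.23 on the log2 scale (SE 0.15, adjusted p = 5.81e-05, edgeR), and it was the only one of these 57 genes called with the vascular and stromal covariate (adjusted p = 0.0249). Ccne2, a cyclin of S-phase entry, fell by 0.54, and Rbl1, a pocket protein that binds E2F factors, fell by 0.45. E2f6, a repressor of the E2F family, rose from 29.5 ± 4.68 to 38.1 ± 1.751 CPM (0.37, adjusted p = 0.0358, edgeR), and was called in 9 of 17 alternative settings.

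The mitosis genes, the group most like this one in function, were mostly lower in TG in the same libraries. Of 22 mitosis genes, 15 were lower (68.2%, against 8.06% of all genes) and 0 higher (against 12.1%, edgeR). Their median log2 fold change was −0.97. At an unadjusted p under 0.05, 18 were lower and 0 higher (edgeR), where all genes gave 14.2% and 17.6%. The 22 genes summed to 288, 227, 257 and 232 CPM in TG and 512, 596, 663 and 429.7 CPM in WT. Their sum divided by that of the 37 replication genes was 0.43, 0.42, 0.44 and 0.36 in TG and 0.78, 0.93, 0.94 and 0.71 in WT. Every TG-labelled library thus had a lower ratio of the 2 sums than any WT-labelled one. Abundant genes weigh most in these sums. In WT, Mki67 averaged 158 CPM and Top2a 121 CPM of a mean mitosis sum of 550 CPM. Rfc1 averaged 92.9 CPM and Pcna 57.5 CPM of a mean replication sum of 652 CPM. The ratio therefore says little about the scarce genes of either list. Among the members, 29 of 37 had an interval that excluded the median of the mitosis genes. No test compared the 2 lists, and both come from the same libraries. Mki67, whose promoter with CHR letters stands above, had a log2 fold change of −1.22 with an interval from −1.51 to −0.94, and Top2a, the topoisomerase that untangles sister chromatids, of −1.39 (−1.74 to −1.04). With the vascular and stromal covariate, 8 mitosis genes were called lower and 18 had an unadjusted p under 0.05, all lower (edgeR). Over all genes 0.926% were then called lower and 10.7% had such a p in either direction. The median log2 fold change of the mitosis genes was then −1.47, while their median standard error rose from 0.22 to 0.43.

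**Figure D3:**
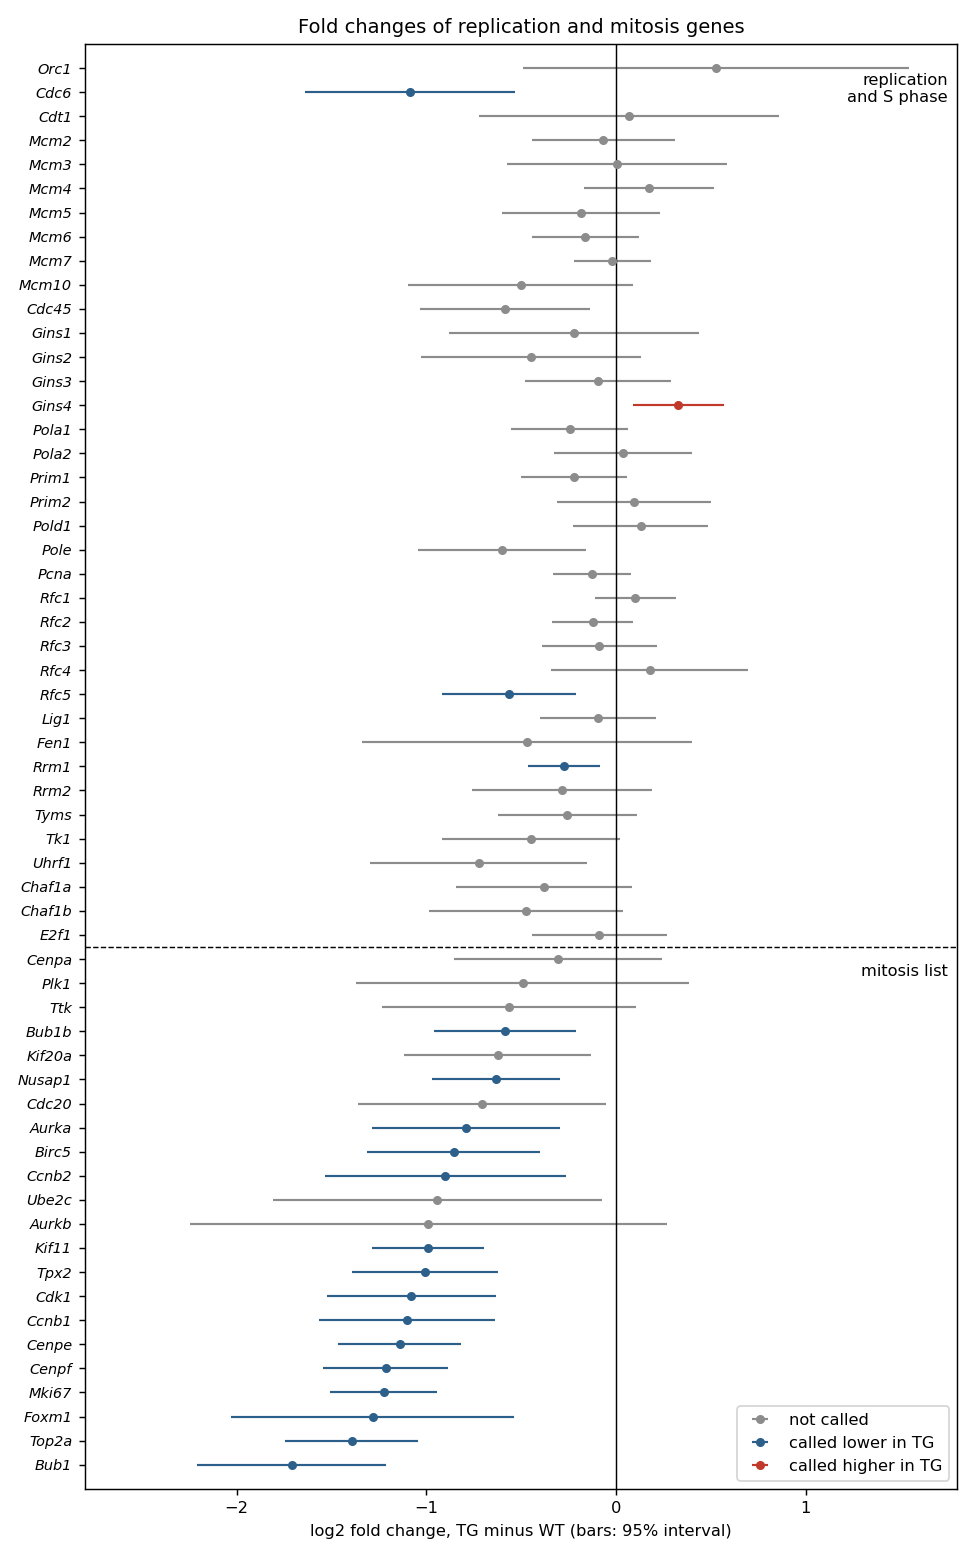
Log2 fold change, TG minus WT, of the 37 replication and S-phase genes in order of role and, below the dashed line, of the 22 mitosis genes in order of value. Points are edgeR estimates, bars 95% intervals, and colours mark calls at an adjusted p under 0.05. Of the 37 replication genes 27 lie below 0, with a median of −0.16 and Cdc6 lowest at −1.09. All 22 mitosis genes lie below 0, with a median of −0.97.

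**Figure D4:**
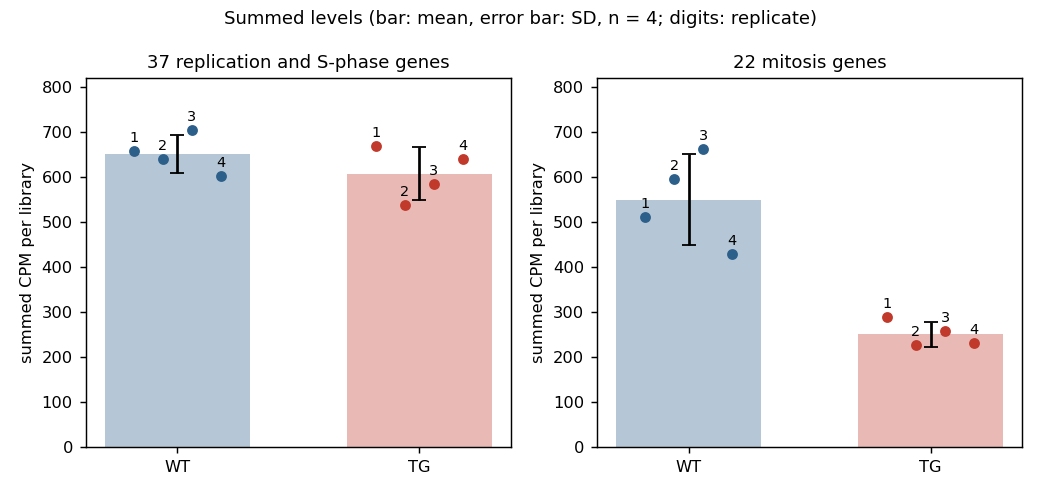
Summed CPM per library of the 37 replication and S-phase genes (left) and the 22 mitosis genes (right), with bars for group means, error bars for SD (n = 4) and digits for replicate numbers. The replication sums overlap between 538 and 706 CPM, and the mitosis sums do not overlap.

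Among the members with a promoter window, the E2F-type letters were spread over members with and without a change. The 13 members with such letters had a median log2 fold change of −0.10, with 1 called lower (Cdc6), and the 17 without had −0.27, with 2 called lower (Rfc5 and Rrm1). The values ran from −1.09 to 0.52 in the first set and from −0.58 to 0.18 in the second.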

How the data were processed

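The 8 islet RNA libraries are 4 with the TG label and 4 with the WT label. The authors deposited raw read counts per Ensembl gene for each library. The submitters' processing notes name STAR 2.7.10a, HTSeq 0.11.3 and mm39. No source used here gives the strand setting. Reads in no gene made up 25.3% to 31.5% of each table and ambiguous reads 3.74% to 4.36%, and they were left out. Chi-square per gene between libraries of a group was 16.9 to 56.7, so no library was a copy.

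Symbols and exon lengths came from GENCODE M21, which gave a symbol to 52081 of 55414 identifiers and all 37 members. Overlaps between exons of different genes were also taken from GENCODE M21. Its build differs from the counts' build, so these overlaps may differ from those in the annotation used for counting. It gave no other coordinates. Promoters are RefSeq's on GRCm38.p6.

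Genes were filtered with edgeR's filterByExpr (minimum count 10), leaving 20509 and all 37 members, scaled by TMM and tested with the robust quasi-likelihood test of edgeR 4.0.16 in R 4.3.3 on group alone, two-sided. Calls are at a Benjamini-Hochberg adjusted p under 0.05. The step was tested on simulated data. Intervals are 95%, from the standard error. A count of 0 would allow up to 3 counts, or 0.133 to 0.182 CPM, which covers counting error only. The 17 alternatives were DESeq2 1.42.0, voom of limma 3.58.1, other scalings and filters, a replicate block, a covariate and each library left out. Every member is reported, with the called genes of other lists (up to 4 each by adjusted p, and all called higher), Mki67 and Top2a. Members, lists and alternatives were chosen with earlier results of these data known. Figures used matplotlib 3.10.9.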

Additional observations from a re-analysis of the deposited data

Results flagged for a closer look

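In 5 of 78 groups of 4 libraries examined (37 members and 2 sums, in TG and WT), 1 library stood far from the other 3 by Dixon's test at the 95% level. Chance gives such a gap in about 1 in 20 groups. Mcm10 had such a library in both groups, lowest in TG replicate 2 (1.73 CPM, next 3.18) and highest in WT replicate 2 (5.67 CPM, next 3.77). Gins4 was highest in WT replicate 2 (29.8 CPM, next 24.4), which is the library whose removal left its call in place. Pole was lowest in WT replicate 4 (8.68 CPM, next 10.7), and Chaf1a was highest in WT replicate 3 (8.56 CPM, next 6.38).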

How the results depend on the processing

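The median log2 fold change of the members was below 0 in all 17 alternatives (−0.24 to −0.11 without single libraries, −0.47 with the vascular and stromal covariate), and the log2 ratio of their sums was −0.16 to −0.05 without single libraries. Members called lower (3) were 6 with DESeq2, 5 with limma-voom, 5 with upper-quartile scaling, 5 with no filter, 0 with the covariate and 1 to 3 without single libraries. Members called higher (1) were 0 with median-of-ratios scaling, upper-quartile scaling, no filter and the covariate, and 0 to 1 without single libraries. Without single libraries, 4 to 9 members did not overlap with TG lower and 0 to 2 with TG higher, with no share over all genes given for these settings. Other replication genes called higher (1) were 2 with DESeq2, limma-voom, the 1 CPM filter, the replicate block and scaling without the 50 most abundant genes, 0 with upper-quartile scaling and the covariate, and 0 to 2 without single libraries. Those called lower (8) were 12 with upper-quartile scaling, 10 with DESeq2, and 9 with median-of-ratios scaling and with the replicate block. They were 7 with no filter and with the 1 CPM filter, 1 with the covariate and 3 to 7 without single libraries. Mitosis genes called lower (15) were 8 with the covariate and 11 to 16 without single libraries, and called higher 0. Over all genes 190 were lower and 117 higher with the covariate, and 1122 to 2131 and 1691 to 2622 without single libraries. The cause of these shifts was not tested. The settings without single libraries also have fewer samples.

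Replicate numbers are shared by both groups, but same-numbered libraries did not deviate together (correlations −0.03, 0.08, 0.02 and 0.01). With the replicate block 4 members were lower and 1 higher, with a median of −0.17, and the member gained was Pole (−0.64, adjusted p = 0.0248, edgeR). Of 629 values of single members under the alternatives, 27 lost a call, 14 gained one and none of the called ones changed sign. Low counts limit Orc1, Cdt1, Gins1 and Fen1 most. For Fen1, depth cannot be told apart from reads lost to the overlap with other genes.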
